A study of Sus scrofa with 32 samples.

Results

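For each gene, the log2 change from cyclic to pregnant gilts in the luminal epithelium (LE) of the pig endometrium was set against the same change in the stroma (S) beneath it, and the first less the second is called the difference below. A positive difference means that the gene stood higher in pregnant gilts by more, or lower by less, in LE than in S. The members are the 10978 genes that passed the authors' filter in both compartments, of 30185 genes counted, and all of them were tested in one model. A further 1024 genes that passed in LE only and 957 that passed in S only were not tested. The values come from 16 of the 31 libraries with counts in the series, namely LE and S of 4 cyclic and 4 pregnant gilts, each gilt giving 1 library of either compartment. Gilts are named by the letter and number in their library labels, C for the controls (C128, C40, C42 and C78) and P for the pregnant ones (P139, P39, P41 and P43). The comparison asks in which genes the epithelium that faces the conceptus and the connective tissue under it respond unequally.

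LE is the single sheet of cells that lines the uterine lumen, and in the pig, whose conceptus attaches without invading, it is the maternal tissue that the trophoblast touches. S lies below it and consists mostly of fibroblasts within collagen-rich matrix, with vessels, glands and leukocytes passing through. Around attachment the conceptus releases oestrogens and cytokines, LE loses progesterone receptor while S is known to keep it, and stromal growth factors act back on the epithelium.

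All 8 gilts were prepuberal animals whose cycles were synchronised with equine and human chorionic gonadotropin, and all were sampled on Day 14. Pregnant gilts had received semen of a German Landrace boar, and cyclic gilts (labelled Control, nonpregnant) had received the supernatant of centrifuged semen of that boar. Endometrium of pregnant gilts was taken from hyperemic zones, the reddened places of conceptus attachment, after the conceptuses had been removed, so pregnancy and the kind of zone cannot be told apart. Cells were cut from cresyl violet-stained sections by laser capture microdissection, in which a laser excises chosen cells under the microscope, and the RNA was amplified with a kit for very small inputs.

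The libraries held 2832169 to 7081556 counts on genes, and levels are given as CPM, the usual depth-scaled counts, after scaling by the trimmed mean of M-values (TMM). A floor of 3 counts over the 4 libraries of a group equals 0.174 to 0.240 CPM. A floor of this kind covers counting error only. As a check of the captures, 14 epithelial marker genes (among them EPCAM, CDH1 and KRT8) summed to 3161 to 4000 CPM in LE of cyclic, 2591 to 2939 CPM in LE of pregnant and 17.2 to 567 CPM in S of all gilts. The sum was thus lower in every pregnant than in every cyclic LE library. The means of 9 of the 14 genes were lower in LE of pregnant gilts, such as the keratins KRT7 (142 and 21.2 CPM in cyclic and pregnant gilts) and KRT19 (222 and 20.2 CPM), and those of 5 were higher, such as CDH1 (862 and 1167 CPM). Fibroblast markers (10 genes, among them COL1A1 and COL3A1) summed to 43800 to 112300 CPM in S and 4938 to 19350 CPM in LE. Leukocyte markers (14 genes) summed to 223 to 608 CPM in S and 67.5 to 176 CPM in LE. Their median in LE was 104 CPM in cyclic and 148 CPM in pregnant gilts. Endothelial markers (9 genes) had medians of 519 and 853 CPM in LE and of 1224 and 1527 CPM in S. Smooth muscle and pericyte markers (8 genes) had 626 and 716 CPM in LE and 1417 and 895 CPM in S. The ranges of cyclic and pregnant gilts overlapped for all of these sums. The part of leukocyte and vessel RNA in the LE values was not tested. Of 8 trophoblast markers, IL1B2, CYP19A1, CYP17A1 and CDX2 were at 0 in all 16 libraries. The whole list summed to 1.21 to 24.3 CPM. Pregnant gilts had the higher median sum, with 7.14 against 2.17 CPM for LE and 16.9 against 6.59 CPM for S, though the ranges overlapped. HAND1 was at 0 in both compartments of cyclic gilts, and its means with pregnancy were 0.877 (LE) and 0.347 CPM (S). IFNG and GATA3 also had higher means with pregnancy in both compartments, and TFAP2C had a higher one in S and a lower one in LE. The part of conceptus RNA in these values was not tested.

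The S libraries held some epithelial RNA, with a higher median in pregnant gilts. The epithelial marker sum of S was 0.466% to 5.79% of that of LE of the same gilt in cyclic gilts (median 2.95%) and 1.74% to 19.7% in pregnant gilts (median 8.57%), ranges that overlapped, with the highest sums in P41 and P139. The lower LE sums of pregnant gilts raise this share, but the S sums themselves also had a higher median in pregnant (248 CPM, from 45.0 to 567) than in cyclic gilts (115 CPM, from 17.2 to 216). Conversely, the fibroblast sum of LE was 11.3% to 19.3% of that of S in cyclic and 16.3% to 24.3% in pregnant gilts. Gland markers (6 genes) summed to 11.8 to 23.7 CPM in S of cyclic and 60.4 to 173 CPM in S of pregnant gilts, without overlap. Most of this was ACP5, with S means of 8.83 and 81.7 CPM and LE means of 205 and 415 CPM. In S of pregnant gilts the means of CYP2C36, CYP2C34 and CXCL14 were also higher, and those of BHMT and RLBP1 lower. The part of these markers in single differences was not tested beyond values given below without P139 and P41. In such tissue captures fewer cells of a type and less RNA per cell cannot be told apart.

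**Figure D1:**
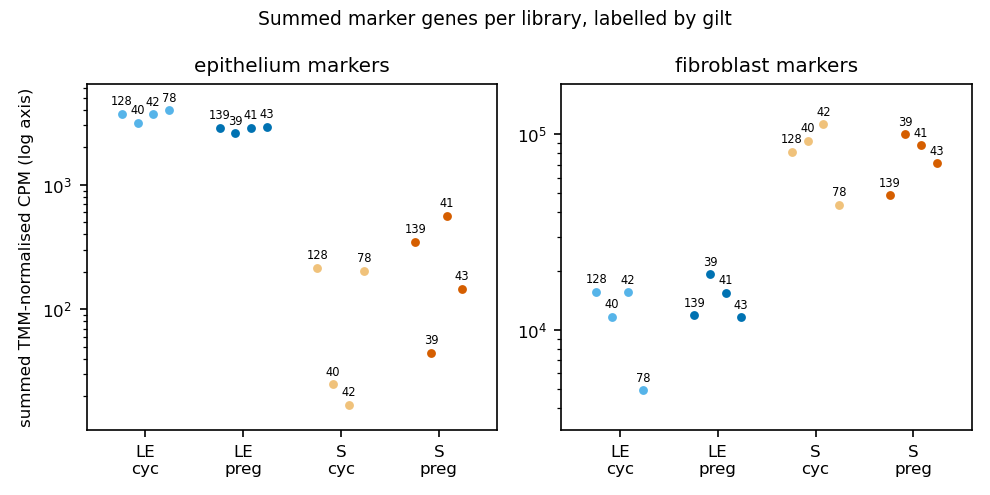
Summed CPM (log axis) of the epithelial markers (left) and the fibroblast markers (right) in the 16 libraries, by compartment and status (cyc, cyclic; preg, pregnant), with 1 point per library labelled by its gilt. Epithelial sums were at or above 2591 CPM in every LE library and at most 567 CPM in every S library.

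More genes were called for pregnancy in LE than in S. At a false discovery rate (FDR) of 1%, 687 genes differed between pregnant and cyclic gilts in LE (6.26% of those tested), 402 of them higher (3.66%) and 285 lower (2.60%) in pregnant gilts. In S the same test called 2 genes (0.0182%), TRPV5 and STON2, 10 genes at an FDR of 5% (0.0911%) and 1541 genes (14.0%) at an unadjusted p under 0.05. Without 1 gilt the count in LE was 329 to 706, and it fell by more than 1.5 times without C40 (340 genes), C42 (379), P139 (401), P39 (358) or P43 (329). The count in S was 2 to 4 in these fits, with 4 without C78 or P39 and 3 without P43. It depended more on the tool, with 102 genes in S and 1368 in LE by DESeq2, 185 and 1325 by edgeR's robust likelihood ratio test, and 0 (1641 at an unadjusted p under 0.05) and 333 when edgeR was fitted to each compartment apart. The median size of the log2 change was 0.34 in LE and 0.23 in S, with median standard errors of 0.25 and 0.25. For the difference itself, which was fitted with the gilt as a block and so need not equal the subtraction of both changes, the median size was 0.34 with a median standard error of 0.32.

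The difference was called at an FDR of 1% for 17 genes (0.155%), 10 with a positive (0.0911%) and 7 with a negative value (0.0638%). The positive ones included FGL2, THY1, ABHD15, IFFO2, GPRC5B, EDNRA, EIF4E3, WNK1 and GNPTAB, and the negative ones were SHROOM1, RIMKLB, HMGCS1, MGST1, MBOAT1, EVL and SOX13. Their adjusted p was 0.00807 for 13 genes and 0.00826 for 4. The change in LE was the larger one in all 17, beside 62.7% of all genes. Its sizes were 1.24 to 4.93 on the log2 scale, beside 0.03 to 0.99 in S. Of the 17, 16 were also called in LE (all but MGST1), beside 6.26% of all genes. No S change among them passed an FDR of 5% (lowest adjusted p = 0.247), which only 0.0911% of all genes did. The level in LE relative to S of the same gilt did not overlap between the 4 pregnant and 4 cyclic gilts for any of them, which 10% of all genes showed, and the exact permutation test gave p = 0.0286, the smallest that 4 against 4 gilts allow. These values rest on the same gilts and the same difference that chose the genes, so they describe the calls and add no separate support.

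The levels of cyclic gilts are a term of the difference that chose these genes, so the following is a description. By the mean over gilts, all 10 genes with a positive difference stood lower in LE than in S of cyclic gilts. In pregnant gilts they stood higher in LE than in S, and 8.74% of all genes had both. In single gilts, EDNRA stood lower in LE than in S of P139 (log2 -0.32), and WNK1 did not stand lower in LE of C78 (0.003). All 7 with a negative difference stood higher in LE than in S of cyclic gilts, beside 50.8% of all genes. By the mean over gilts, the gap narrowed in 5 of them and turned in 2, EVL and SHROOM1. EVL still stood higher in LE than in S of P139 (log2 0.16) and P43 (0.28).

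The calls depended on each gilt, whereas the values moved less. No gene passed 1% without C128, C40, C42, P139, P39 or P43, in the same edgeR test, while 1275 to 1739 genes had an unadjusted p under 0.05 in those fits. Without C78, 9 genes passed, and without P41, 4 genes. In these 8 fits the 17 genes kept their sign, had sizes of 89.3% to 113% of those with all gilts, and had adjusted p of at most 0.0497. Without P139 and P41 together their adjusted p lay between 0.0239 and 0.0701. Other settings of the same edgeR test with all gilts called fewer or more genes. There were 5 with TMM on the full tables, 7 with the filter filterByExpr and 12 with counts thinned to the smallest library. These held 5, 7 and 10 of the 17. There were 34 without the block for the gilt and 26 without a filter, which held 14 and 16 of the 17. Other tests called more genes at 1%, namely 51 with limma voom, 247 with DESeq2 and 201 with edgeR's robust likelihood ratio test, which held 13, 15 and 17 of the 17, DESeq2 giving no adjusted p for SHROOM1 and IFFO2.

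**Figure D2:**
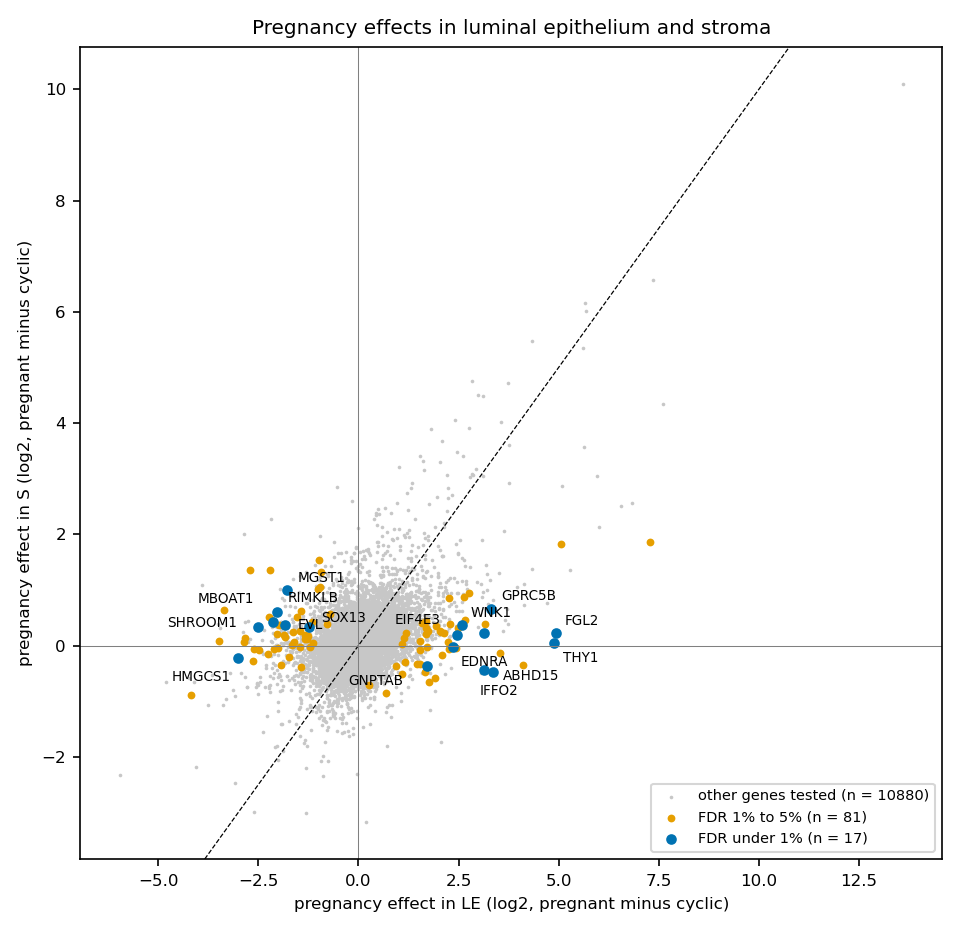
Log2 change from cyclic to pregnant gilts in LE (x axis) against that in S (y axis) for the 10978 genes, with a dashed line of equal change, 81 genes called between an FDR of 1% and 5% in orange, and the 17 genes under 1% in blue, 16 of them named. The blue points lie 1.24 or more from 0 along the LE axis and within 0.99 of 0 along the S axis.

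**Figure D3:**
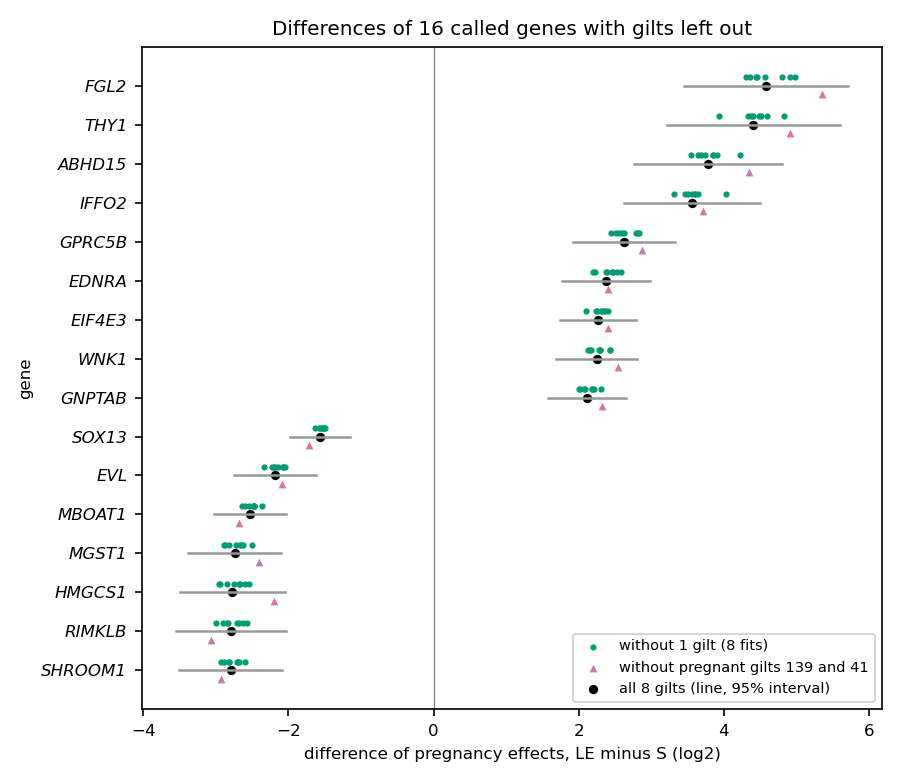
Log2 difference of 16 of the 17 genes with all 8 gilts (black, with its 95% interval), in the 8 fits without 1 gilt (green) and without P139 and P41 (triangles). The values of each gene stay on their side of 0, and those without 1 gilt lie within 89.3% to 113% of the value with all gilts.

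Values of single libraries are given in the order of C128, C40, C42 and C78 and of P139, P39, P41 and P43. WNK1 (GeneID 406235, chr5:68000792-68142533, plus strand) is a kinase that controls sodium- and chloride-coupled cotransporters. Its level was 231, 234, 207 and 268 CPM in LE of cyclic and 1420, 1435, 1343 and 1495 CPM in LE of pregnant gilts. In S the values were 298, 321, 354 and 268 CPM in cyclic and 515, 331, 405 and 353 CPM in pregnant gilts. LE of pregnant gilts stood above every other library, and S of pregnant gilts overlapped S of cyclic gilts. The log2 change was 2.60 in LE and 0.37 in S (unadjusted p = 0.0304), which left a difference of 2.25 (SE 0.25).

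Other members of the list for sodium, chloride, water and calcium transport went both ways. Among 25 tested members, 4 had a positive and 4 a negative difference at an unadjusted p under 0.05, beside 6.93% and 7.89% of all genes. ATP1B1, the beta subunit of the sodium pump, had a log2 change of -2.10 in LE (called) and of 0.13 in S. STK39, a kinase downstream of WNK1, had a difference of 2.04, ATP2B4, a plasma membrane calcium pump, one of -1.31, and SCNN1A, the alpha subunit of the epithelial sodium channel, one of -1.94.

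Surface and secreted proteins of immune and connective tissue cells included the pair with the largest positive differences among the 17. FGL2 (GeneID 448808, chr9:102869044-102875564, plus strand), a fibrinogen-like protein with prothrombinase and immune-regulating activity, was at 18.8, 13.6, 14.2 and 16.5 CPM in LE of cyclic gilts. In LE of pregnant gilts it was at 302, 458, 438 and 733 CPM. S held 38.8 to 133 CPM in cyclic and 60.7 to 140 CPM in pregnant gilts, ranges that overlapped. LE of cyclic gilts lay below S of the same gilts, LE of pregnant gilts above. FGL2 rose by 4.93 on the log2 scale in LE beside 0.23 in S, and the difference was 4.58 (SE 0.51).

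THY1 (GeneID 100271931, chr9:46607022-46612691, minus strand) encodes a glycolipid-anchored surface protein that is widely used to mark fibroblasts. It was at 13.9, 8.62, 10.2 and 6.54 CPM in LE of cyclic gilts and at 319, 632, 61.0 and 155 CPM in LE of pregnant gilts. The spread among the pregnant gilts was wide, with P41 lowest, yet all 4 stood above S of the same gilt. S was at 38.8 to 76.4 CPM in cyclic and 43.6 to 73.9 CPM in pregnant gilts. The log2 change was 4.89 in LE and 0.04 in S, and the difference 4.41 (SE 0.53). THY1 belongs to the fibroblast marker list, and its LE mean in pregnant gilts was 29.8 times that in cyclic gilts. Of the other 9 genes of the list 8 also had a higher LE mean in pregnant gilts, and this ratio ran from 0.753 for COL6A3 to 1.57 for VIM. The part of fibroblast RNA in the LE values was not tested.

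EDNRA (GeneID 397457, chr8:81210750-81279053, minus strand), the type A receptor for endothelins, was at 9.92 to 15.7 CPM in LE of cyclic and 58.6 to 70.1 CPM in LE of pregnant gilts. In S it was at 43.3 to 84.0 CPM and 46.7 to 73.4 CPM. LE of pregnant gilts thus stood in the range of S, and the difference was 2.38 (SE 0.27). GPRC5B (GeneID 100623340, chr3:25870369-25896113, plus strand), an orphan G protein-coupled receptor, averaged 20.2 ± 3.06 CPM in LE of cyclic and 199.5 ± 40.9 CPM in LE of pregnant gilts (SD, n = 4). Its S means were 36.7 and 58.4 CPM, and the log2 changes were 3.299 in LE and 0.66 in S (unadjusted p = 0.0172).

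Other genes with a positive difference act inside the cell. EIF4E3 (GeneID 100525891, chr13:53080200-53152335, minus strand), of the family of proteins that bind the messenger RNA cap, was at 40.6, 40.3, 40.3 and 38.5 CPM in LE of cyclic gilts and at 235, 243, 202 and 203 CPM in LE of pregnant gilts. Both LE groups were narrow, and S of pregnant gilts (69.6 to 101 CPM) overlapped S of cyclic gilts (63.6 to 92.6 CPM). The difference was 2.27 (SE 0.23).

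GNPTAB (GeneID 100523554, chr5:82264640-82460819, plus strand) encodes subunits of the enzyme that starts the mannose 6-phosphate tag by which lysosomal enzymes are sorted. It was at 62.5, 96.6, 95.3 and 115 CPM in LE of cyclic and 254, 319, 288 and 349 CPM in LE of pregnant gilts. In S it was at 116, 129, 141 and 117 CPM in cyclic and 85.4, 98.4, 113 and 91.5 CPM in pregnant gilts. The groups were apart in both compartments and in opposite order. It rose by 1.71 on the log2 scale in LE, the S value was -0.37 (unadjusted p = 0.0474), and the difference was 2.11 (SE 0.24). IFFO2 (GeneID 100737107, chr6:77406367-77458234, minus strand), a relative of intermediate filament proteins, averaged 2.77 CPM in LE of cyclic and 24.9 CPM in LE of pregnant gilts beside 11.08 and 8.24 CPM in S. ABHD15 (GeneID 100516224, chr12:45752848-45761850, minus strand), an alpha/beta hydrolase fold protein known from the control of lipolysis in fat cells, averaged 3.44 and 35.6 CPM in LE beside 8.23 and 5.99 CPM in S. Both were low in every cyclic LE library, at 1.70 to 4.31 CPM and 2.91 to 3.97 CPM.

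**Figure D4:**
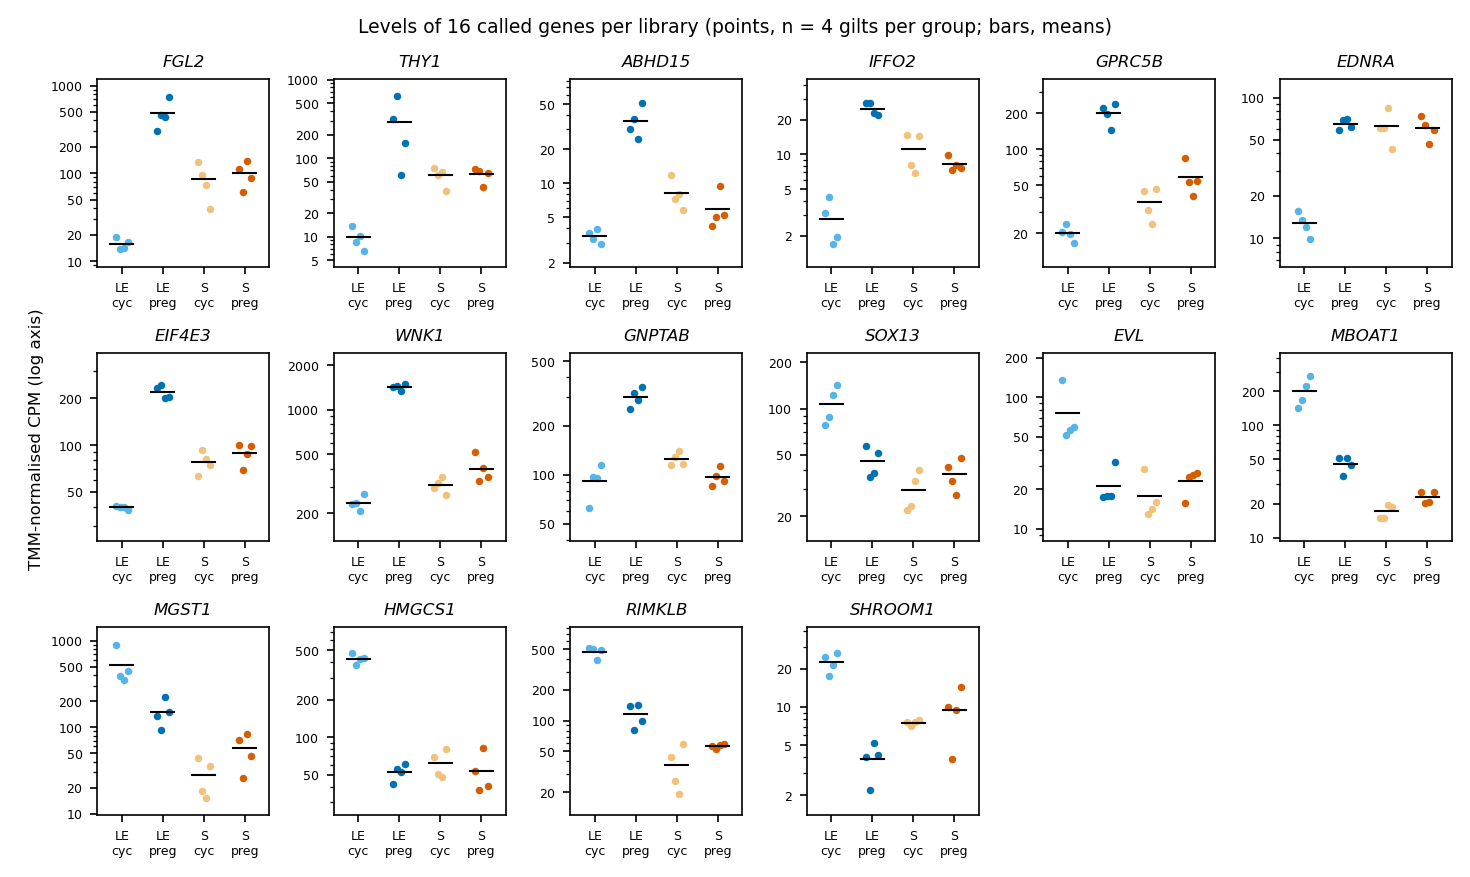
CPM (log axis) of 16 of the 17 genes with a called difference in each of the 16 libraries, 1 panel per gene and 1 point per library, by compartment and status, with bars at the means. In LE the pregnant and cyclic gilts are apart in every panel, whereas in S they overlap in all but MBOAT1 and GNPTAB.

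Enzymes made up 4 of the 7 genes with a negative difference. MBOAT1 (GeneID 100152017, chr7:15532641-15644332, minus strand), which attaches fatty acids to lysophospholipids, was at 141, 169, 222 and 272 CPM in LE of cyclic and at 51.4, 35.5, 51.7 and 44.1 CPM in LE of pregnant gilts. S held 14.9 to 19.7 CPM in cyclic and 20.4 to 25.5 CPM in pregnant gilts, so that neither compartment overlapped between the groups. It fell by 2.13 on the log2 scale in LE, the S value was 0.43, and the difference of -2.53 (SE 0.22) had the smallest p of all genes.

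MGST1 (GeneID 397567, chr5:56259566-56283823, minus strand), a membrane-bound glutathione transferase that detoxifies lipid peroxides, was at 886, 387, 348 and 445 CPM in LE of cyclic and 136, 93.9, 226 and 148 CPM in LE of pregnant gilts. In S it was at 44.4, 18.2, 15.3 and 35.5 CPM in cyclic and 71.4, 25.7, 83.8 and 46.1 CPM in pregnant gilts. LE was separated by group and S was not, with the S values of P41 and P139 the highest. The log2 values were -1.77 in LE (adjusted p = 0.0112) and 0.99 in S (unadjusted p = 0.0345), and the difference was -2.74 (SE 0.28). Without P139 and P41 it was -2.40.

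RIMKLB (GeneID 100152915, chr5:62676220-62715273, minus strand), a ligase that joins N-acetylaspartate or citrate to glutamate, was at 510, 507, 389 and 491 CPM in LE of cyclic and 140, 81.8, 143 and 100 CPM in LE of pregnant gilts. Its S values were 43.8, 25.5, 19.0 and 59.1 CPM in cyclic and 56.7, 52.6, 57.6 and 59.0 CPM in pregnant gilts. The LE groups were apart and the S groups overlapped, with narrow values in pregnant gilts. RIMKLB had a log2 change of -2.03 in LE and of 0.60 in S (unadjusted p = 0.0476), in opposite directions.

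Regulators of actin and of transcription were the other 3. SHROOM1 (GeneID 100525213, chr2:135147828-135152540, minus strand), of a family of actin-binding proteins that shape epithelial cells, was at 17.7 to 26.6 CPM in LE of cyclic and 2.22 to 5.17 CPM in LE of pregnant gilts beside 7.01 to 7.86 and 3.84 to 14.3 CPM in S. LE of pregnant gilts had fallen below S of cyclic gilts, and the difference was -2.80 (SE 0.31). EVL (GeneID 100513162, chr7:120911814-121056556, plus strand), an actin-elongating protein of the Ena/VASP family, was at 134, 51.5, 56.5 and 59.8 CPM and at 17.6, 17.8, 17.7 and 32.3 CPM in LE. One cyclic and one pregnant gilt stood apart, and the groups did not overlap. SOX13 (GeneID 100524269, chr9:64745762-64780942, plus strand), a transcription factor of the SoxD group, had the difference nearest 0 of the 17 at -1.57 (SE 0.18), with LE means of 108 and 45.7 CPM and S means of 29.7 and 37.5 CPM.

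HMGCS1 (GeneID 100524223, chr16:27936225-27957261, minus strand) forms HMG-CoA, from which cells make cholesterol. It was at 476, 379, 421 and 433 CPM in LE of cyclic and 42.3, 55.2, 52.9 and 61.3 CPM in LE of pregnant gilts. In S it was at 69.8, 50.8, 48.2 and 79.7 CPM in cyclic and 53.8, 37.7, 81.4 and 40.9 CPM in pregnant gilts. The LE groups were far apart and the S groups overlapped. In cyclic gilts LE stood well above S, and in pregnant gilts both compartments were at a like level. The log2 change was -3.01 in LE and -0.22 in S, and the difference was -2.77 (SE 0.32).

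Other genes of the pathway had values of the same sign. When cells hold little sterol, SREBP2 (gene SREBF2), a transcription factor cut loose from the endoplasmic reticulum, turns on the enzymes from HMGCS1 to the last steps of cholesterol synthesis, and INSIG1 holds it back when sterol is plentiful. Of the 32 genes on the cholesterol list 24 were tested. The difference was negative in all 24, which holds for 51.2% of all genes, and 15 had an unadjusted p under 0.05 with a negative and none with a positive sign, beside 7.89% of all genes with a negative sign. HMGCS1 passed an FDR of 1%, and HMGCS1, CYP51 and HSD17B7 passed 5%. The median difference was -1.30, against -0.02 over all genes, from a median log2 change of -1.50 in LE and 0.08 in S.

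In LE 11 of the 24 fell at an FDR of 1%, beside 2.60% of all genes, and none rose. None had an unadjusted p under 0.05 in S, beside 14.0% of all genes, and the S values lay between -0.70 and 0.79. CYP51, which removes a methyl group of lanosterol, was at 248, 238, 225 and 272 CPM in LE of cyclic and 42.9, 42.5, 35.0 and 55.6 CPM in LE of pregnant gilts, with 18.2 to 31.0 and 13.8 to 32.7 CPM in S. Its LE groups were apart and its S groups overlapped, with a difference of -2.38 (SE 0.40, adjusted p = 0.0333). HSD17B7, a reductase of a later sterol step, was at 40.03, 131, 150 and 249 CPM in LE of cyclic and 27.7, 19.7, 62.4 and 33.6 CPM in LE of pregnant gilts, which overlapped, since C128 was low. HSD17B7 in S was at 4.21 to 21.7 and 8.07 to 28.3 CPM. Relative to S of the same gilt the groups were apart, with a difference of -2.30 (SE 0.41, adjusted p = 0.0376).

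SQLE, squalene epoxidase, had a difference of -2.23, MSMO1, a sterol methyl oxidase, one of -2.27, and STARD4, a sterol carrier, one of -2.17. INSIG1 had -2.19. Nearest to 0 were the exporters ABCA1 at -0.25 and ABCG1 at -0.21, which answer to the sterol-sensing receptor LXR. SREBF2 itself had a difference of -0.62.

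**Figure D5:**
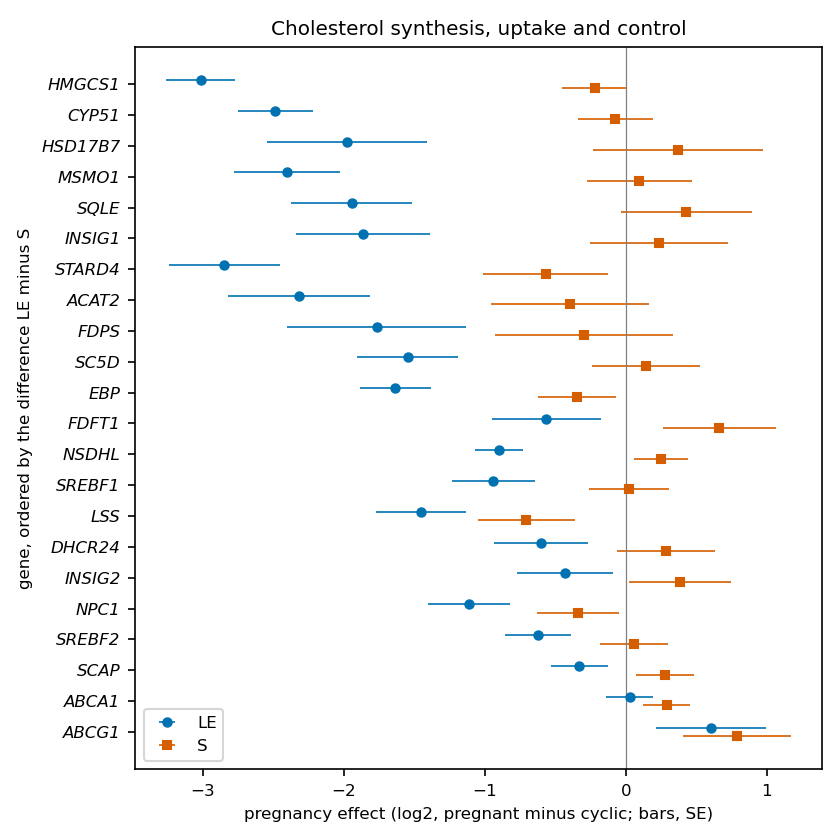
Log2 change from cyclic to pregnant gilts with its standard error for 22 of the 24 tested genes of the cholesterol list in LE and in S, ordered by the difference. Values in LE reach -3.01 and those in S stay between -0.70 and 0.79.

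The values were smaller without the gilts whose S libraries had the highest epithelial marker sums. Without P139 and P41 all 24 differences were still negative, with a median of -0.82 and 7 genes at an unadjusted p under 0.05. Of all 10978 genes, 1428 had such a p in that fit, in either direction. The median change was then -1.42 in LE and -0.31 in S. Leaving out 1 gilt at a time gave medians from -1.61 to -1.12, with 10 to 16 genes at an unadjusted p under 0.05 and 23 or 24 negative values. Of all 10978 genes, 1275 to 1739 had such a p in these 8 fits, in either direction. By the mean over gilts, 22 of the 24 genes stood higher in LE than in S of cyclic gilts, beside 50.8% of all genes. The part of epithelial RNA in S was not tested further.

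Because these genes share a known regulator, the 250 bases before the annotated start of each gene were searched on both strands for the sterol regulatory element TCACNCCAC and for the CCAAT box, which do not overlap in the windows shown. The sequences are from the RefSeq genome Sscrofa11.1, printed in the direction of transcription up to the base before the start. Capitals mark either motif (ATTGG is CCAAT on the other strand). Shown are the called gene, which has the element, and the other genes of the list past 5%.
HMGCS1, chr16:27957262-27957511, minus strand: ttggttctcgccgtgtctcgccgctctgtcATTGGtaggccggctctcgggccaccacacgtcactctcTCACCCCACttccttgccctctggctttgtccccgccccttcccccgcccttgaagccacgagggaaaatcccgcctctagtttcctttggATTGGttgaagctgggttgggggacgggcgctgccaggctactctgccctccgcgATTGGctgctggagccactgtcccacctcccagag
CYP51, chr9:72079588-72079837, minus strand: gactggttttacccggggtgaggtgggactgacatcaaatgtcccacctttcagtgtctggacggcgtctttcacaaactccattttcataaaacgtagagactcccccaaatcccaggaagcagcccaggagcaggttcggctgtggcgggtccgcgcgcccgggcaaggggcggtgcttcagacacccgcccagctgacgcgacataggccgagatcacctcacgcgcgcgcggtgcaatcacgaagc
HSD17B7, chr4:87743038-87743287, minus strand: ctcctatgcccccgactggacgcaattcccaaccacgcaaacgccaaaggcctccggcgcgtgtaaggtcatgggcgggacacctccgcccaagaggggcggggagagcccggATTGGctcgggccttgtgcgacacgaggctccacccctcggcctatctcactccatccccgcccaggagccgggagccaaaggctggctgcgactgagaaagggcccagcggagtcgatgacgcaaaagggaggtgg

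The element was found in 3 of the 24 windows of the cholesterol list (12.5%), among them HMGCS1 and SREBF2, and in 87 of 10975 windows of tested genes (0.793%). Its first base lay 181 bases before the start of HMGCS1. CCAAT was found in 15 of 24 windows (62.5%), beside 32.7% of all. CYP51 had neither motif in this window. A match is a match of letters only.

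Nutrient uptake and use gave values of both signs. Of 36 tested members, 6 had a positive and 7 a negative difference at an unadjusted p under 0.05. Over all genes these shares were 6.93% and 7.89%. SLC2A3, the high-affinity glucose transporter GLUT3, was at 396, 395, 480 and 277 CPM in LE of cyclic and 17.3, 24.1, 25.3 and 18.5 CPM in LE of pregnant gilts. In S it was at 48.8 to 159 CPM and 37.7 to 55.7 CPM. LE stood above S in every cyclic gilt and below S in every pregnant gilt. The log2 change was -4.18 in LE and -0.89 in S, and the difference of -3.45 (SE 0.51) had an adjusted p of 0.0238. FADS1, a fatty acid desaturase, had a difference of -1.54 (adjusted p = 0.0370). FASN and SCD, which make and desaturate fatty acids, had -1.27 and -1.66, both called lower in LE. On the other side stood SLC43A2, an amino acid transporter, at 1.64, PFKFB3, which speeds glycolysis, at 1.83, and LPL, lipoprotein lipase, at 1.64.

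Several integrins were higher in LE of pregnant gilts. Among 21 integrins and ligands 6 had a positive and 3 a negative difference at an unadjusted p under 0.05, with a median of 0.63. Over all genes 6.93% were positive and 7.89% negative at that p. ITGAV, the alpha v chain that binds osteopontin and fibronectin, was at 345, 161, 142 and 137 CPM in LE of cyclic and 934, 763, 588 and 674 CPM in LE of pregnant gilts, beside 162 to 212 and 153 to 265 CPM in S. Its partners ITGB3 and ITGB5 had differences of 3.27 and 1.17, and TINAGL1, a matricellular ligand, one of 2.33. All 4 were called higher in LE, and none passed an FDR of 5% for the difference. The basal epithelial chains ITGB4, ITGA6 and ITGA3 were the negative ones, at -1.61, -1.48 and -1.24. The log2 change of ITGB4 was -0.65 in LE (unadjusted p = 0.0631) and 0.93 in S (unadjusted p = 0.0130). Its S mean in pregnant gilts was 24.3% of that in LE, and the part of epithelial RNA in it was not tested.

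Among 32 matrix proteases and inhibitors 4 values were positive and 1 negative at that p, beside 6.93% and 7.89% of all genes. MMP2, a gelatinase, was at 261, 270, 350 and 142 CPM in LE of cyclic and 1167, 1402, 952 and 1302 CPM in LE of pregnant gilts, and at 1129 to 2797 and 1439 to 2301 CPM in S. The LE groups were apart and the S groups overlapped, with a difference of 2.16 (SE 0.33, adjusted p = 0.0243). CTSC, a lysosomal protease, had a difference of 2.23. ADAMTS4, which cleaves aggrecan and versican, differed for its S values, 21.7, 47.4, 118 and 226 CPM in cyclic and 5.16, 6.15, 21.8 and 12.9 CPM in pregnant gilts, with a log2 value of -3.18 in S and 0.19 in LE. Its S groups overlapped by 1 pair of gilts. Collagens and other stromal matrix genes (35 tested) had 1 positive and 2 negative values, beside the same shares of all genes.

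TGF-beta, BMP and activin signalling (29 tested) had 6 positive and 2 negative values at an unadjusted p under 0.05. Over all genes these shares were 6.93% and 7.89%. ACVR1, a type I receptor of BMP and activin, passed 5% with a difference of 0.97, and SMAD3, which carries the signal to the nucleus, had 1.13. Beside the same shares of all genes, endoplasmic reticulum genes (23 tested) had 5 positive and no negative values at that p. These were CREB3L2, a transcription factor of the secretory pathway, at 1.07 (adjusted p = 0.0403), XBP1 at 1.12, EIF2AK3 at 1.08, DNAJC3 at 0.62 and ERN1 at 0.58, the sensors and effectors of the response to unfolded protein. The median of this list was 0.31.

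Antigen presentation by MHC class I (18 tested) had 3 positive and 4 negative values at an unadjusted p under 0.05. Over all genes these shares were 6.93% and 7.89%. The heavy chains SLA-2, SLA-3 and SLA-1 had positive differences of 1.99, 1.43 and 1.17, whereas PSMB8, TAP1, TAP2 and TAPBP, which cut, transport and load peptides, had negative ones of -1.22, -1.15, -1.23 and -0.64. SLA-2 was at 148 to 170 CPM in LE of cyclic and 3336, 948, 465 and 1415 CPM in LE of pregnant gilts, beside 157 to 351 and 225 to 1209 CPM in S. The same gilt, P139, was highest in both compartments. SLA-1, SLA-2 and SLA-3 are near-identical genes whose reads the counting may have split between them, so their separate values are uncertain. Of 11 tested MHC class II genes none had an unadjusted p under 0.05. At that p, interferon receptors, factors and targets (39 tested) had 6 positive and 5 negative values, beside the same shares of all genes. The positive ones included STAT5A at 1.21 and STAT5B at 0.92, and the negative ones IFI35 at -1.40 and IRF7 at -1.11.

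Cytokine signalling (21 tested) had 2 positive and 5 negative values at an unadjusted p under 0.05. Over all genes these shares were 6.93% and 7.89%. IL6R, the IL6 receptor, was at 5.76, 10.99, 12.2 and 17.9 CPM in LE of cyclic and 185, 126, 39.1 and 136 CPM in LE of pregnant gilts, beside 19.1 to 32.8 and 26.1 to 64.6 CPM in S, with a difference of 2.51. IL17RD, a receptor-like inhibitor of growth factor signalling, passed 5% with -2.32 (adjusted p = 0.0256), and IL11RA had -1.50. The clock repressors BHLHE40 and BHLHE41 had values of opposite sign, 1.36 and -3.04. They were within 3 of 18 clock genes at that p, beside 14.8% of all genes in either direction.

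Junction genes had a low median difference for their S values. Of 16 tested 15 had a negative difference, beside 51.2% of all genes, with a median of -1.01. CGN and F11R, 2 of the 16, were negative at an unadjusted p under 0.05, beside 7.89% of all genes. All 16 were higher in S of pregnant gilts (median 0.92, 4 at an unadjusted p under 0.05), beside 53.4% of all genes (median 0.03, 8.22% at that p), and the LE median was -0.17. Without P139 and P41, whose S libraries had the highest epithelial marker sums, 10 were negative, the median difference was -0.20 and the S median was -0.02. CGN, cingulin of tight junctions, was at 1.83 to 11.5 CPM in S of cyclic and 8.45 to 16.01 CPM in S of pregnant gilts, small values beside 57.1 to 152 CPM over all LE libraries.

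No member of the other lists passed an FDR of 5% for the difference, and their counts at an unadjusted p under 0.05 are set beside 6.93% of all genes with a positive and 7.89% with a negative value. At that p, Wnt signalling (29 tested) had 2 positive and 5 negative values, growth factors and receptors (34) 2 and 2, steroid and retinoid receptors and enzymes (30) 2 and 3, and prostaglandin genes (12) none and 2. Alarmins (14) had 1 and 1, cell survival genes (16) 3 and 1, and proliferation genes (13) none and 1. Among their members, PGF, a placental growth factor, had a difference of 3.22, BCL2, an inhibitor of apoptosis, one of 1.42, HPGD, which breaks down prostaglandins, one of -2.07, and S100A11, a calcium-binding protein, one of -1.02.

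At an FDR of 5% the difference was called for 98 genes (0.893%), 50 positive (0.455%) and 48 negative (0.437%). The LE change was the larger one in 92 of them and the S change in 6, beside 62.7% of all genes with the larger change in LE. By the unadjusted p of each compartment, 75 had changed in LE alone, 1 in S alone, 10 in the same direction and 12 in opposite directions. Over all genes these shares were 23.4%, 7.74%, 5.86% and 0.437%, and genes with opposite changes are those that a large difference selects. By the mean over gilts, all 48 genes with a negative difference stood higher in LE than in S of cyclic gilts, beside 50.8% of all genes. Of the 50 positive ones 43 stood higher in S, beside 49.2%. These levels are a term of the difference, which favours such a split. Chosen after their values were seen, EMB, an immunoglobulin-like chaperone of lactate transporters, had the largest positive value of the 98 at 5.16, STEAP4, a metalloreductase, the largest negative one at -3.89, and ABCG2, an efflux pump, had -2.95.

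The number of genes called in the same direction in both compartments was bounded by the 10 genes called in S at an FDR of 5%. At an FDR of 5% in both and with the same sign there were 7 genes (0.0638%), TRPV5, TRPV6, STON2, STEAP2, FMO5, PPDPF and LOC100519934, all of them higher in pregnant gilts. DESeq2 gave 136 such genes and the robust likelihood ratio test 173. Without 1 gilt the number was 2 to 43, reaching 43 without C78 and 13 without P39, while it was 3 without P43 and 2 in each of the remaining 5 fits. The 95% interval of the difference lay within -1 to 1 for PPDPF only, from -0.81 to 0.25. PPDPF, named for pancreatic progenitor cells, was at 85.3 to 108 CPM in LE of cyclic and 131 to 160 CPM in LE of pregnant gilts, and at 34.5 to 40.5 and 51.3 to 78 CPM in S. Neither compartment overlapped between the groups, and the log2 changes were 0.62 in LE and 0.91 in S. The intervals of the other 6 were wider, such as -2.70 to 3.43 for the calcium channel TRPV5, which averaged 5.75 and 283 CPM in LE and 0.351 and 15.3 CPM in S. In S of pregnant gilts TRPV5 stood at 5.41%, STEAP2 at 6.62%, TRPV6 at 7.34%, LOC100519934 at 8.72%, FMO5 at 12.8% and STON2 at 17.6% of the mean level in LE. These values are of the size of the epithelial marker share of these libraries (1.74% to 19.7%), whereas PPDPF stood at 47.2%. Whether the S values of the 6 genes other than PPDPF come from epithelial RNA was not tested.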

How the data were processed

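RNA was measured in 16 laser-captured libraries of LE and S. Upstream, the authors used Trim Galore for trimming, Hisat2 for mapping to Sscrofa11.1, nudup for the removal of PCR duplicates and QuasR for counting over NCBI genes, with versions not given in the sources used here. The deposited values are whole counts per gene, without normalization, in a full and a filtered table per compartment, and the CPM limit of the filter is not given in the sources used here. Reads of overlapping genes and of near-identical copies cannot be told apart in these counts, and the strand setting of the counting is not given.

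The counts of the 10978 genes in both filtered tables were scaled by TMM over these genes and fitted with edgeR 4.0.16 (R 4.3.3). The difference of the effects of pregnancy was tested by the quasi-likelihood F test with the gilt as a fixed block, since LE and S came from the same animal, and the change in each compartment by a fit of all 4 groups without the block. The Benjamini-Hochberg adjustment ran over all genes tested, and calls were made at an FDR of 1%, 5% being given beside it. Standard errors were derived from the coefficient and its F statistic. Exact permutation tests were two-sided, over the 70 splits of 8 gilts, on LE minus S log2 CPM within a gilt with a prior count of 2. As a check of the pairing, the deviations of a gilt's LE and S libraries from their group means correlated across genes between -0.17 and 0.28. P-values of the difference measure the spread between gilts. Those of the change in LE or S rest on a spread pooled over both compartments, with the libraries of a gilt taken as independent. Ribosomal RNA genes (2 genes) took 11.3% to 16.7% of the counts.

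Members and gene lists were chosen with earlier results of these data known. Genes were named by a rule: called genes whose within-gilt values did not overlap and whose highest group mean reached 10 CPM, up to 12 per direction, called genes with opposite or S-only changes, up to 8 similar effects, and per list every called member with up to 4 more as examples. All other genes were chosen after their values were seen. Some genes that the counts and medians include are not reported by name here, nor is one promoter sequence. The fits were tested on simulated data before use. Alternatives were no block, limma 3.58.1 voom with a random block, DESeq2 1.42.0 and edgeR's robust likelihood ratio test. Further ones were other scaling and filters, thinned counts, an FDR of 5%, separate fits and each gilt left out. The authors also used a robust edgeR model, but compared pregnant and cyclic gilts per cell type. Here LE and S were fitted jointly, with the gilt block for the difference, so the counts are not those of the authors' method. The fit without P139 and P41 was added after the data had been seen. GE and vessel libraries were not used here.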

Additional observations from a re-analysis of the deposited data

Results flagged for a closer look

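The effect of pregnancy differed between LE and S by the test of the difference itself for 17 genes. The log2 differences included 4.58 for FGL2, 4.41 for THY1, 3.78 for ABHD15, 3.57 for IFFO2, 2.62 for GPRC5B, 2.38 for EDNRA, 2.27 for EIF4E3, 2.25 for WNK1 and 2.11 for GNPTAB. It was -1.57 for SOX13, -2.19 for EVL, -2.53 for MBOAT1, -2.74 for MGST1, -2.77 for HMGCS1, -2.79 for RIMKLB and -2.80 for SHROOM1.

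Single libraries stood far from the other 3 of their group in 12 of 168 groups examined, and chance alone flags about 1 in 20. Among the genes, EIF4E3 in LE of gilt C78 was at 38.5 CPM beside 40.3 to 40.6 CPM in the others. EVL was apart in 3 groups, in LE of gilt C128 at 134 CPM (others 51.5 to 59.8), in LE of gilt P43 at 32.3 CPM (17.6 to 17.8) and in S of gilt P139 at 15.7 CPM (25.0 to 26.5). RIMKLB in LE of gilt C42 was at 389 CPM beside 491 to 510 CPM. MMP2 in S of gilt P139 was at 1439 CPM beside 2167 to 2301 CPM, and PPDPF in S of gilt P43 at 51.3 CPM beside 76.8 to 78 CPM. The LE minus S log2 value of IFFO2 in gilt P39 was 1.85 beside 1.41 to 1.45.

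Among sums of marker genes, the epithelial sum in LE of gilt P39 was 2591 CPM (others 2881 to 2939). The smooth muscle and pericyte sum in S of gilt P139 was 1937 CPM (788 to 901), the red cell sum in S of gilt C40 was 1174 CPM (276 to 317), and the trophoblast sum in S of gilt C78 was 18.2 CPM (5.05 to 6.98).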

How the results depend on the processing

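All 17 called genes kept the sign of their difference in every alternative in which they were tested. Past 1% remained 14 of them without the block, 13 with limma voom, 15 with DESeq2, 17 with the robust likelihood ratio test, 16 with RLE size factors, 5 with TMM on the full tables, 16 without a filter, 7 with filterByExpr, 10 with thinning, 16 without ribosomal RNA genes and all of the 14 tested among genes in all 4 filtered tables. Without 1 gilt 0 to 7 remained, and without P139 and P41 0. The number of called differences (17), the number of them changed in LE alone (12), the numbers called in LE (687) and in S (2) and the similar effects (7) moved more. Without the block for the gilt, 34 differences were called, 26 in LE alone. Limma voom with a random block (consensus correlation 0.097) gave 51 and 37, with 1 gene in S and 3 similar effects. DESeq2 gave 247 and 188, with 1368 in LE, 102 in S and 136 similar, and the robust likelihood ratio test 201 and 137, with 1325, 185 and 173. TMM on the full tables gave 5 and 4, filterByExpr 7 and 5, and no filter 26 and 19, with 6 in S and 11 similar effects. Genes in all 4 filtered tables gave 1 in S and 4 similar effects, and thinning to the smallest library 12 differences, 8 in LE alone, with 4 genes in S. At an FDR of 5%, 98 differences, 75 in LE alone, 1791 genes in LE and 10 in S were called. RLE size factors and leaving out the ribosomal RNA genes each gave 16 differences.

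Separate fits of the compartments gave 333 genes in LE and, with edgeR, 0 in S (1641 at an unadjusted p under 0.05). Without P139 and P41, 0 differences (1428 at an unadjusted p under 0.05, lowest adjusted p 0.0239), 0 in LE alone, 261 genes in LE, 0 in S (1259 at an unadjusted p under 0.05) and 2 similar effects were called. Leaving out 1 gilt at a time gave 0 to 9 differences, 0 to 5 in LE alone, 329 to 706 genes in LE, 2 to 4 in S and 2 to 43 similar effects. The causes of these shifts were not tested, beyond the smaller number of gilts in the last fits. Of 441 medians of gene lists under the alternatives, 439 moved by less than the median standard error of the list's genes. The other two were those of the cholesterol and junction lists without P139 and P41. The medians of both lists stayed negative throughout, from -1.61 to -0.82 and from -1.43 to -0.20. With 4 gilts per group, genes that were not called are not shown to be alike in LE and S.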
